A study of Homo sapiens with 8 samples.

Results

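Caspases are proteases that carry out apoptosis, and the apoptosome is the complex that switches them on from the mitochondria. The genes described here are 3 caspases and 5 regulators of this step, namely CASP2, CASP6, CASP9, APAF1, CYCS, XIAP, DIABLO and HTRA2. They are the genes of the deposited table whose human Ensembl identifier maps to these symbols. All 8 were found among the 20263 genes of the table, and all 8 passed the filter on low values used for testing.

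RNA sequencing was performed on PANC-1, an established human cell line derived from a pancreatic duct carcinoma. Cultures received 10 μM eupalinolide B (EB), a plant-derived sesquiterpene lactone, or the vehicle dimethyl sulfoxide (DMSO) for 24 h, with 4 libraries in each group and no other difference between the groups in the labels. The study asked by which route EB kills pancreatic cancer cells, and the comparison of EB with DMSO here asks which transcripts of the apoptosome and its caspases differed. A single cell line, dose and time were sequenced. The values are TPM, which scale the reads of each gene by its transcript length and by the library's total, so levels can be set side by side between genes. In a bulk culture, fewer cells that express a gene and less RNA per cell cannot be told apart.

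In the intrinsic pathway of apoptosis, cytochrome c leaves the mitochondrial intermembrane space and binds APAF1, which assembles into the apoptosome and activates the initiator caspase-9. Caspase-9 then cleaves effector caspases, which cut the substrates that dismantle the cell. XIAP binds and inhibits active caspases, and DIABLO and HTRA2, released from the same space as cytochrome c, relieve that inhibition. This control acts largely on proteins, by release, cleavage and binding, and TPM reports only the transcripts.

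The libraries had the keratins of an epithelial line. The summed TPM of KRT7, KRT8, KRT18 and KRT19 was 991 to 1454 with DMSO and 3208 to 3592 with EB, with KRT7 below 1 in every library. All 4 acinar markers were at 0, and all 4 endocrine, 4 leukocyte and 3 endothelial markers were below 1 in every library. Of 4 fibroblast markers, COL1A1 alone reached 1, with 0.806 to 2.17 TPM over all libraries, and DCN and LUM were at 0. The mitochondrially encoded genes took 17% to 39.0% of the TPM with DMSO, where replicate 4 stood apart at 39.0%, and 11.6% to 20.3% with EB.

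The sequences upstream of the start of 4 of these genes are shown before the values, since HTRA2 and APAF1 were the genes called as changed, CYCS was the only one of the 8 to hold the ATF/CREB site, and XIAP had by far the fewest CpG dinucleotides. They are RefSeq sequences on GRCh38.p14, written 5′ to 3′ on the strand of the gene and ending next to the RefSeq transcription start, and capitals mark a motif match.
HTRA2, chr2:74529155-74529404, plus strand: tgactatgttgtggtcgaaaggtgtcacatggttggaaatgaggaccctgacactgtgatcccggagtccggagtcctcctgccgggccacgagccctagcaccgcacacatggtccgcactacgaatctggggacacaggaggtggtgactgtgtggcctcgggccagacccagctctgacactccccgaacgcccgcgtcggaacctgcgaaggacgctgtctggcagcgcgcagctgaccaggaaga
APAF1, chr12:98645114-98645289, plus strand: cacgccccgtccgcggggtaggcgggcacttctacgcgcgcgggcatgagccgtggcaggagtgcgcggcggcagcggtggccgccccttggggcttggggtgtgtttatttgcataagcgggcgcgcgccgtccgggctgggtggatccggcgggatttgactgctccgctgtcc
CYCS, chr7:25125261-25125510, minus strand: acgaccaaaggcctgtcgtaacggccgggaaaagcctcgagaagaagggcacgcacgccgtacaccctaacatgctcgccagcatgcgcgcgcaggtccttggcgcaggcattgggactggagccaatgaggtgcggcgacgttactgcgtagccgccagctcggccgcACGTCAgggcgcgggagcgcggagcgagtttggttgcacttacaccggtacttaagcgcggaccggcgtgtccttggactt
XIAP, chrX:123859458-123859707, plus strand: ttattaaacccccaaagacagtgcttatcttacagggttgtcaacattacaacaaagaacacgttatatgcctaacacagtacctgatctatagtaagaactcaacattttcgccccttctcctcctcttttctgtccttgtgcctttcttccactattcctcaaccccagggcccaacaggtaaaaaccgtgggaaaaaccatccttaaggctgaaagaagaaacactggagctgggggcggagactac
The RefSeq start of HTRA2 lies upstream of its GENCODE start. The window of HTRA2 falls within the neighbouring gene AUP1, whose annotation overlaps the GENCODE start of HTRA2. In the full window of 250 bases before the start, GC content was 62.4% for HTRA2, 73.6% for APAF1, 64.4% for CYCS and 44.8% for XIAP, against a median of 58% over 27305 RefSeq promoters. The window of APAF1 held 38 CpG dinucleotides, that of CYCS 31, that of HTRA2 18 and that of XIAP 4, where the median over all promoters was 11. The capitals in CYCS mark the ATF/CREB site, searched as TGACGT on both strands and found on the opposite strand from 81 bases before the start. It was held by 7.42% of all promoters. The ATF4 composite motif TGATGNAA, held by 3.19% of all promoters, the E2F motif TTTGGCGC, held by 0.553%, and the core of the antioxidant response element TGACNNNGC, held by 11%, had no match in any of the 8 windows. The SP1 motif GGGGCGGGG, held by 15.4% of all promoters, was found in the windows of the 3 caspase genes. The windows of CASP9 and DIABLO lie within the GENCODE spans of these genes, and those of CASP2 and CASP6 lie partly within theirs. A match describes letters only, and its absence says only that these letters are not in the window.

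EB changed the transcripts of 2 of the 8 genes. HTRA2 encodes a serine protease of the mitochondrial intermembrane space that can bind XIAP once released, and its mean TPM rose 2.28-fold. The mean TPM of APAF1, the scaffold of the apoptosome, fell to 0.484 of that with DMSO. Neither CYCS, CASP9, CASP2, CASP6, XIAP nor DIABLO passed the test. Calls are by limma on log2(TPM + 1) with a Benjamini-Hochberg adjusted p under 0.05 over all 11725 genes tested. On this scale 40.3% of all genes tested were called in either direction, 15.2% as higher and 25.1% as lower with EB, so 2 of 8 (25%) is no larger a share than that of genes in general. The 4 EB values did not overlap with the 4 DMSO values for 2 of the 8 genes (25%) and for 36.8% of all genes tested. The study names thresholds of p under 0.05 and a log fold change above 1.5. They were read here as an unadjusted limma p and an absolute log2 fold change. On this reading none of the 8 was counted, against 2.08% of all genes tested (244 genes). That total differs from the number of genes that the study reported. Of the 8, 3 (37.5%) had an unadjusted limma p under 0.05. Every gene called by adjusted p also passes this threshold, so it is passed by at least 40.3% of all genes tested. The median log2 fold change over the 8 genes was 0.17, with 5 positive and 3 negative, and the median over all genes tested was −0.11.

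**Figure D1:**
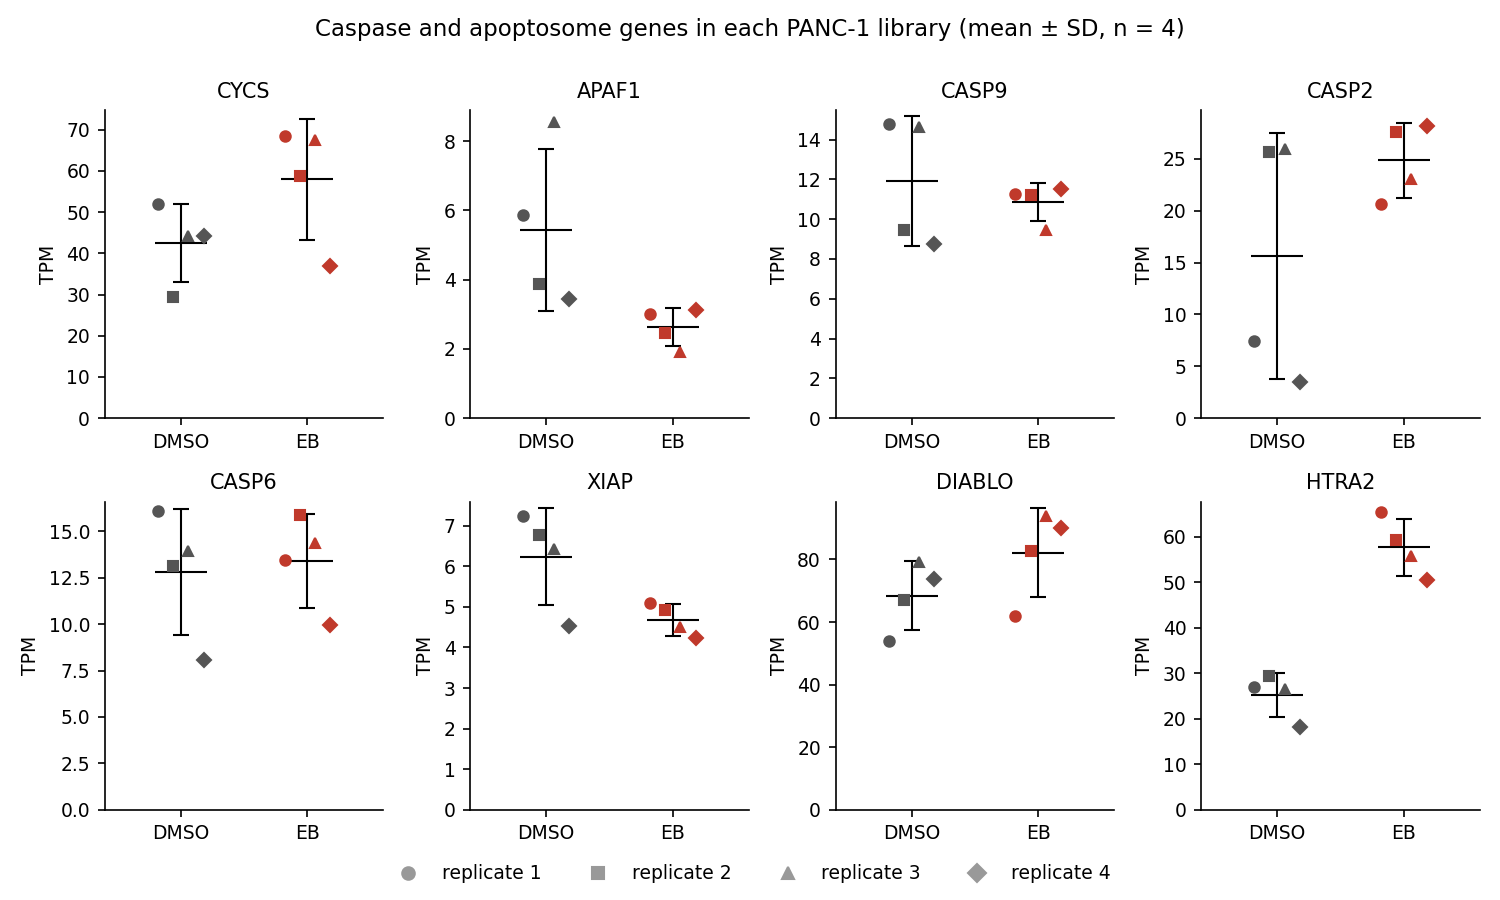
TPM of the 8 genes in each PANC-1 library, with DMSO in grey and EB in red. Each panel has its own linear axis from 0, symbols mark the replicate number, and lines give the mean ± SD of 4 libraries. The EB libraries sit above all DMSO libraries for HTRA2 and below all of them for APAF1, while the groups overlap in the other panels.

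The order of the 8 genes by mean TPM was the same with EB as with DMSO, namely DIABLO, CYCS, HTRA2, CASP2, CASP6, CASP9, XIAP and APAF1 from high to low. With DMSO the ranges of neighbours in this order overlapped except between DIABLO and CYCS and between CASP9 and XIAP. With EB the neighbours that did not overlap were HTRA2 and CASP2, CASP2 and CASP6, CASP9 and XIAP, and XIAP and APAF1. CYCS and HTRA2 were thus apart in mean with DMSO, at 42.5 and 25.3 TPM, and nearly level with EB, at 58.0 and 57.7 TPM.

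APAF1 (ENSG00000120868) maps to the plus strand of chromosome 12 (hg38, 98645290 to 98735433). Its TPM was 5.86, 3.86, 8.57 and 3.43 in the 4 DMSO libraries and 3.0, 2.47, 1.92 and 3.12 in the 4 EB libraries. Every EB library was below every DMSO library, although DMSO replicate 4 and EB replicate 4 differed by little, and the DMSO libraries were the more spread out. The means were 5.43 ± 2.34 with DMSO and 2.63 ± 0.549 with EB (SD, n = 4), with a log2 fold change of −0.77 (standard error 0.24, 95% interval −1.30 to −0.24, limma adjusted p = 0.0282). The exact two-sided permutation test over 70 assignments of the libraries gave p = 0.0286, the smallest it can give. APAF1 was the least abundant of the 8 genes in both groups, and 13.3% of all genes tested had a lower log2 fold change.

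The call of APAF1 rested on single libraries and on the processing. The limma adjusted p was 0.0551 without the filter on low values, 0.0667 without DMSO replicate 1, 0.0620 without DMSO replicate 3 (log2 fold change −0.56), 0.0587 without EB replicate 2 and 0.0807 without EB replicate 3. Its canonical transcript is long, at 7201 nucleotides, and with the dependence on length and GC content taken out of every library the log2 fold change was −0.28 (limma adjusted p = 0.300). The sign was negative in each of the 16 alternatives in which the gene was tested. IKBIP starts 177 bases away on the opposite strand, so that the 176 bases shown above for APAF1 lie between the starts of both genes. IKBIP had 30.8 ± 1.62 TPM with DMSO and 37.5 ± 2.52 with EB (SD, n = 4), and its log2 fold change of 0.27 did not pass the test (limma adjusted p = 0.0747).

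CYCS (ENSG00000172115) encodes cytochrome c, the electron carrier of the respiratory chain that triggers apoptosome assembly in the cytosol. It maps to the minus strand of chromosome 7 (hg38, 25118656 to 25125260). Its TPM was 52.1, 29.3, 44.3 and 44.1 with DMSO and 68.5, 58.8, 67.6 and 37.0 with EB. EB replicates 1 to 3 were above all DMSO libraries and EB replicate 4 was below 3 of them, so the groups overlapped. The means were 42.5 ± 9.51 and 58.0 ± 14.6 (SD, n = 4), with a log2 fold change of 0.43 (standard error 0.23, 95% interval −0.09 to 0.95, limma adjusted p = 0.164; exact permutation p = 0.171). Without EB replicate 4 the log2 fold change was 0.63 and passed the test (limma adjusted p = 0.0386). The annotation names 42 pseudogenes of CYCS, none of which is in the table, so reads that CYCS shares with them make its level uncertain.

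CASP9 (ENSG00000132906), the initiator caspase that the apoptosome activates, maps to the minus strand of chromosome 1 (hg38, 15490832 to 15526534). It had 14.8, 9.44, 14.7 and 8.77 TPM with DMSO and 11.3, 11.2, 9.46 and 11.5 with EB. The DMSO libraries fell into a higher and a lower pair, and the EB values lay in the gap between them or at its lower edge. The means of 11.9 ± 3.25 and 10.9 ± 0.949 (SD, n = 4) differed by less than the spread of the DMSO libraries, with a log2 fold change of −0.09 (standard error 0.18, 95% interval −0.50 to 0.32, limma adjusted p = 0.719). This interval leaves room for a change in either direction, and the log2 fold change was −0.21 without DMSO replicate 4 and 0.15 with quantile normalization, neither past the test. DNAJC16, which starts 279 bases away on the opposite strand, fell from 8.96 ± 2.35 to 3.39 ± 0.941 TPM (SD, n = 4; log2 fold change −1.17, limma adjusted p = 0.00239).

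CASP2 (ENSG00000106144) encodes an initiator caspase that is activated on a platform of its own, the PIDDosome. It maps to the plus strand of chromosome 7 (hg38, 143288215 to 143307696). Its TPM was 7.45, 25.7, 26.0 and 3.53 with DMSO and 20.7, 27.6, 23.1 and 28.2 with EB. DMSO replicates 1 and 4 were far below the rest, and DMSO replicates 2 and 3 were as high as the EB libraries. CASP2 thus had the widest relative spread among the 8 genes within DMSO, at 15.7 ± 11.9 TPM, against 24.9 ± 3.60 with EB (SD, n = 4). The log2 fold change of 0.99 was not past the test (standard error 0.51, 95% interval −0.15 to 2.14, limma adjusted p = 0.148; exact permutation p = 0.286). It was 0.49 without DMSO replicate 4, the library with the high mitochondrial share, and 1.35 without DMSO replicate 3. Without DMSO replicate 1, the DMSO library with the lowest mitochondrial share (17.0%), it was 0.79.

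The low level of CASP2 in the same DMSO libraries was shared by other genes. Over the 8 libraries the genes whose log2(TPM + 1) was most like that of CASP2 were TPGS2 (Pearson's r = 0.974), ST7L (0.971) and KIAA0930 (0.962). KIAA0930 had 23.8, 54.3, 54.1 and 12.9 TPM in DMSO replicates 1 to 4 and 43.8 to 62.0 TPM with EB. These correlations were picked as the highest of all genes tested, over 8 libraries that hold both groups, and are a description only.

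CASP6 (ENSG00000138794), an effector caspase known for cleaving lamins, maps to the minus strand of chromosome 4 (hg38, 109688622 to 109703583). It had 16.1, 13.1, 14.0 and 8.09 TPM with DMSO and 13.5, 15.9, 14.4 and 9.93 with EB. Replicate 4 was the lowest library of either group, and the remaining values of the groups were interleaved. The means of 12.8 ± 3.39 and 13.4 ± 2.53 (SD, n = 4) gave a log2 fold change of 0.08 (standard error 0.21, 95% interval −0.39 to 0.56, limma adjusted p = 0.781). Without DMSO replicate 4 it was −0.11 (limma adjusted p = 0.589). Its genes of most similar pattern, picked as for CASP2 and given as a description only, were FBXO45 (r = 0.988), POLR1F (0.987) and SHH (0.981).

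XIAP (ENSG00000101966), the caspase inhibitor, maps to the plus strand of chromosome X (hg38, 123859712 to 123913972). Its TPM was 7.25, 6.77, 6.43 and 4.52 with DMSO and 5.08, 4.93, 4.50 and 4.22 with EB. DMSO replicates 1 to 3 were above all EB libraries, and DMSO replicate 4 lay within them. The means were 6.24 ± 1.20 and 4.69 ± 0.395 (SD, n = 4), and the log2 fold change was −0.34 (standard error 0.15, limma p = 0.0475, adjusted p = 0.0960; exact permutation p = 0.0857). Without DMSO replicate 4 it was −0.46 and passed the test (limma adjusted p = 0.00528). XIAP has the longest canonical transcript of the 8 genes, at 8558 nucleotides, and with the length and GC trend removed the log2 fold change was 0.18 (limma adjusted p = 0.118). The annotation names 3 pseudogenes of XIAP, which are not in the table.

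DIABLO (ENSG00000184047), also known as Smac, encodes a mitochondrial protein that binds inhibitors of apoptosis and frees the caspases. It maps to the minus strand of chromosome 12 (hg38, 122207663 to 122227456). It was the most abundant of the 8 transcripts, with 53.9, 67.0, 79.2 and 73.9 TPM with DMSO and 62.0, 82.6, 94.0 and 90.1 with EB. EB replicates 2 to 4 were above all DMSO libraries and EB replicate 1 was below 3 of them. The means of 68.5 ± 10.9 and 82.2 ± 14.2 (SD, n = 4) gave a log2 fold change of 0.26 (standard error 0.17, 95% interval −0.13 to 0.64, limma adjusted p = 0.258; exact permutation p = 0.229). B3GNT4 overlaps DIABLO by 1290 bases on the opposite strand, at 13.1 ± 1.99 TPM with DMSO and 10.0 ± 2.25 with EB (SD, n = 4), and whether reads were counted by strand is not given in the sources used here. On the same strand, the protein-coding gene ENSG00000284934 overlaps DIABLO by 19794 bases and is not in the table. ENSG00000256861 overlaps it there by 19678 bases, at 0.246 ± 0.217 TPM with DMSO and 0.134 ± 0.193 with EB (SD, n = 4). The part of reads shared with these genes in the level of DIABLO was not tested.

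HTRA2 (ENSG00000115317) maps to the plus strand of chromosome 2 (hg38, 74529596 to 74533350). Its TPM was 26.9, 29.4, 26.6 and 18.2 with DMSO and 65.4, 59.2, 55.8 and 50.5 with EB. The lowest EB library was well above the highest DMSO library, and DMSO replicate 4 was the lowest of all. The means rose from 25.3 ± 4.87 to 57.7 ± 6.25 (SD, n = 4), with a log2 fold change of 1.17 (standard error 0.16, 95% interval 0.81 to 1.54, limma adjusted p = 0.000778). The exact permutation p was 0.0286, the smallest that 70 assignments allow. Of all genes tested, 98.6% had a lower log2 fold change.

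HTRA2 was called as higher in each of the 17 alternatives, with log2 fold changes of 1.0 to 1.29 and limma adjusted p of 2.15e-05 to 0.00360. Leaving out single libraries gave values of 1.03 to 1.25. The gene starts head to head with AUP1, a gene of lipid droplets and protein quality control in the endoplasmic reticulum, and the annotations of the pair overlap by 165 bases on opposite strands. AUP1 rose as well, from 166.7 ± 17.7 to 235.5 ± 11.7 TPM (SD, n = 4; log2 fold change 0.50, limma adjusted p = 0.0105). The genes of most similar pattern over the 8 libraries were SLC1A4 (r = 0.996), an amino acid transporter, SQSTM1 (0.996), an autophagy receptor, and POLR2C (0.996), a subunit of RNA polymerase II. As for CASP2, they were picked as the highest of all genes tested, over libraries that hold both groups, and are a description only. LOXL3 also overlaps HTRA2, by 1093 bases on the opposite strand, at 1.37 ± 0.534 TPM with DMSO and 0.712 ± 0.0737 with EB (SD, n = 4). The part of reads shared with AUP1 or LOXL3 in the level of HTRA2 was not tested.

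**Figure D2:**
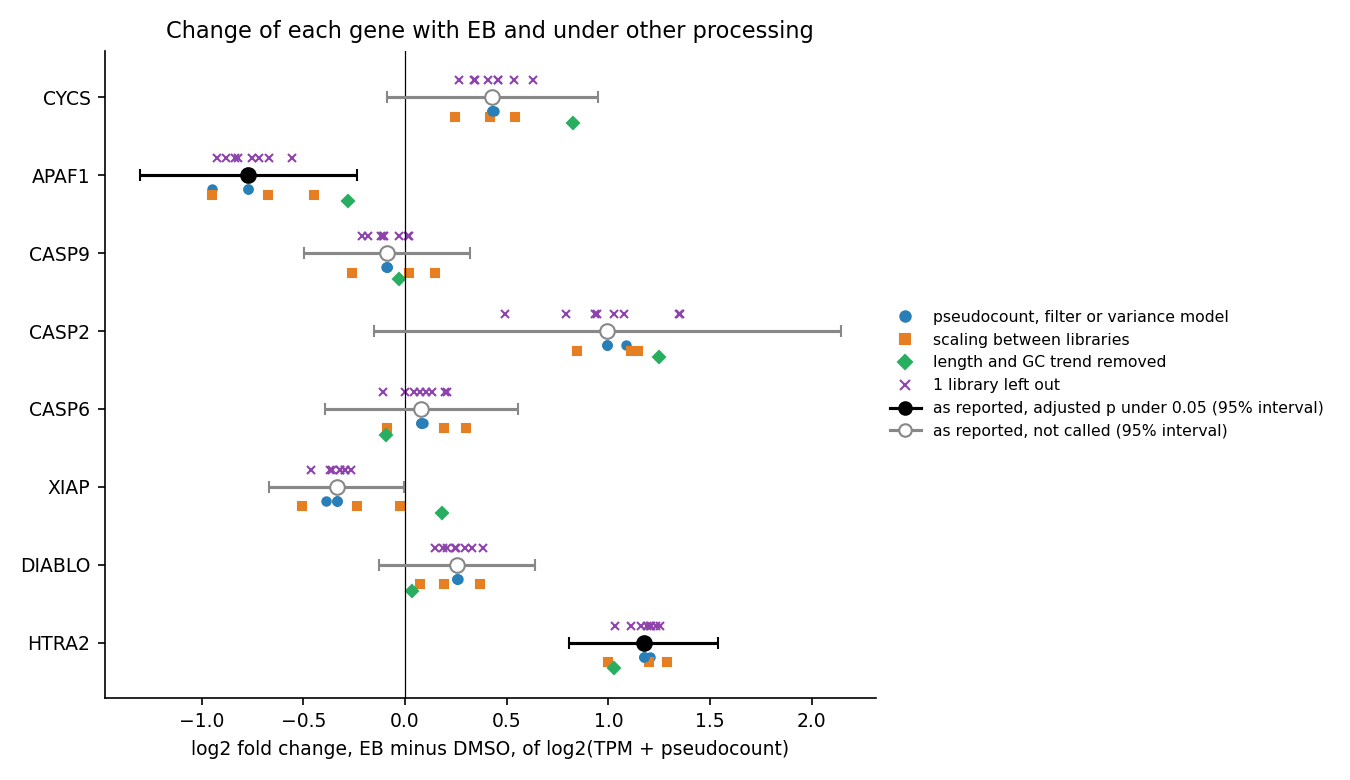
Log2 fold change of each gene, EB minus DMSO, on a linear axis of log2 units. Large circles with bars give the reported value and its 95% interval (black where the limma adjusted p is under 0.05, grey and open where it is not). Small symbols give the value under each alternative except the replicate block, which is not drawn. HTRA2 stays between 1.0 and 1.29, APAF1 between −0.95 and −0.28, and the symbols of CASP6, CASP9 and XIAP fall on both sides of 0.

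The balance of higher and lower calls depended on the scaling between libraries. As deposited, 1785 genes were called higher and 2944 lower with EB, and the 8 genes gave 1 of each. Median-ratio scaling moved the median log2 fold change of all genes tested to −0.01 and called 3039 higher and 3080 lower. HTRA2 was then at 1.29, APAF1 at −0.67 and XIAP at −0.24, and XIAP was called as well (limma adjusted p = 0.0376). With the mitochondrially encoded genes removed and the remaining TPM rescaled, the median was −0.28, with 1451 genes higher and 4954 lower, and XIAP was at −0.51 (limma adjusted p = 0.00169). Quantile normalization called 2792 genes higher and 2759 lower, HTRA2 was at 1.20, and APAF1 at −0.45 was not past the test (limma adjusted p = 0.112). With the length and GC trend removed, 2853 genes were higher and 2547 lower, and CYCS at 0.82 was called in place of APAF1 (limma adjusted p = 0.0219).

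Ratios of the deposited TPM within a library do not change when a library is multiplied by a single factor, and those between genes of opposite or joint roles are given with no test. HTRA2 was 3.71, 4.34, 4.14 and 4.03 times as abundant as XIAP with DMSO and 12.9, 12.0, 12.4 and 12.0 times with EB. This ratio varied little within a group, at 4.06 ± 0.267 and 12.3 ± 0.421 (SD, n = 4), and DMSO replicate 4 did not stand apart in it. DIABLO to XIAP was 11.5 ± 3.80 with DMSO and 17.8 ± 4.26 with EB (SD, n = 4), and the groups overlapped. CASP9 to APAF1 was 2.52, 2.44, 1.71 and 2.55 with DMSO and 3.75, 4.55, 4.92 and 3.69 with EB, without overlap. CYCS to APAF1 was 8.62 ± 3.20 with DMSO and 23.4 ± 9.51 with EB (SD, n = 4), where EB replicate 4 at 11.8 lay below DMSO replicate 4 at 12.8. Corrections that act gene by gene do alter such ratios. With the length and GC trend removed, the log2 fold changes were 1.03 for HTRA2 and 0.18 for XIAP, in place of 1.17 and −0.34, and −0.03 for CASP9 and −0.28 for APAF1, in place of −0.09 and −0.77, so that both pairs lay closer together. A ratio shows unequal change of its members and not which of them moved.

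**Figure D3:**
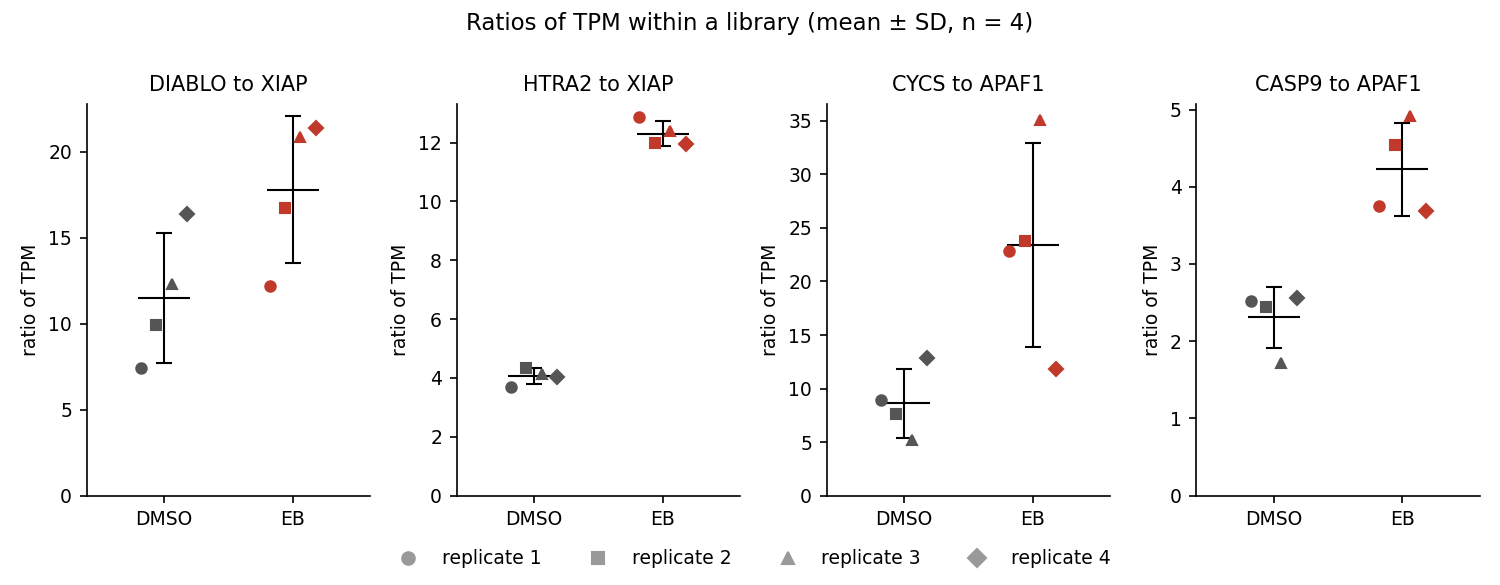
Ratio of TPM of 2 genes within each library, with DMSO in grey and EB in red, symbols for the replicate number and lines for the mean ± SD of 4 libraries. The axes are linear and start at 0. The groups are apart for HTRA2 to XIAP (3.71 to 4.34 against 12.0 to 12.9) and for CASP9 to APAF1, and overlap for DIABLO to XIAP and CYCS to APAF1.

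The rest of the pathway was read from 6 lists of 43 genes, of which 36 were tested. With EB, 3 of these rose, 10 fell and 23 did not pass the test, and the median log2 fold change was −0.13, against −0.11 over all genes tested. The 13 calls among 36 genes are to be read against the 40.3% of all genes tested that were called.

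Among 9 other caspases, 5 were tested, of which 1 fell and none rose. CASP8, the initiator caspase of death receptors, went from 43.8 ± 9.52 to 27.9 ± 6.85 TPM (SD, n = 4; log2 fold change −0.64, limma adjusted p = 0.0415). Its groups overlapped (exact permutation p = 0.0857), and it was not past the test without the filter on low values, without DMSO replicate 1, 2 or 3 or without EB replicate 1, 3 or 4, with limma adjusted p of up to 0.109. CASP1, an inflammatory caspase, was too low for the test, with 0.512 to 1.51 TPM with DMSO and 0, 0.0718, 0 and 0 listed with EB. CASP4, another inflammatory caspase, was at 64.4 ± 4.45 TPM with DMSO and 80.7 ± 5.87 with EB (SD, n = 4), without overlap. Its log2 fold change of 0.32 did not pass the test (limma adjusted p = 0.0519). It passed with median-ratio scaling (limma adjusted p = 0.0333) and not with quantile normalization (limma adjusted p = 0.177).

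Of 6 other genes with a BIR domain, the domain by which XIAP binds caspases, 5 were tested, 3 fell and none rose. BIRC3 encodes a ubiquitin ligase of TNF and NF-κB signaling. It was at 14.8, 14.6, 16.5 and 12.7 TPM with DMSO and 3.61, 3.48, 3.86 and 4.75 with EB, a log2 fold change of −1.67 (limma adjusted p = 5.12e-05). BIRC6, a giant ubiquitin-conjugating enzyme that inhibits caspases, fell from 12.2 ± 3.82 to 4.26 ± 0.989 TPM (SD, n = 4; log2 fold change −1.29, limma adjusted p = 0.00244). NAIP, a sensor of bacterial proteins, fell from 2.59 ± 0.246 to 1.51 ± 0.224 TPM (SD, n = 4; log2 fold change −0.52, limma adjusted p = 0.00808). BIRC3 and BIRC6 were called in each of the 17 alternatives, and BIRC6 was at −0.74 with the length and GC trend removed. NAIP was not past the test with quantile normalization or with the length and GC trend removed, where its log2 fold change was −0.03. BIRC2 and BIRC5 had log2 fold changes of 0.23 and 0.17 and were not called.

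Of 11 modifiers of the apoptosome and of caspases, 10 were tested, with 2 higher and 2 lower. AVEN, which can bind APAF1 and inhibit its assembly, rose from 13.4 ± 2.98 to 24.6 ± 2.43 TPM (SD, n = 4; log2 fold change 0.85, limma adjusted p = 0.00410). TRIAP1, a mitochondrial intermembrane space protein, rose from 18.3 ± 2.94 to 29.2 ± 5.14 TPM (SD, n = 4; log2 fold change 0.64, limma adjusted p = 0.0122). APIP, a methionine salvage enzyme that can also bind APAF1, fell from 78.4 ± 7.07 to 50.3 ± 4.14 TPM (SD, n = 4; log2 fold change −0.63, limma adjusted p = 0.00349). The 4th called gene was CAAP1 (log2 fold change −0.59, limma adjusted p = 0.0314). With the length and GC trend removed TRIAP1 was at 0.36 and not past the test (limma adjusted p = 0.0560). CAAP1 was not past it with median-ratio scaling (−0.49, limma adjusted p = 0.0584), with quantile normalization (−0.30, limma adjusted p = 0.250), or without DMSO replicate 3 or EB replicate 2, 3 or 4 (limma adjusted p = 0.0778, 0.0722, 0.0536 and 0.0816). AVEN and APIP, of which one rose and the other fell, are both known as inhibitors of the apoptosome.

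Of the 2 partners of CASP2 in the PIDDosome, the adaptor CRADD rose and PIDD1 did not pass the test. CRADD was at 6.50, 8.43, 7.68 and 5.18 TPM with DMSO and 11.6, 10.3, 11.5 and 10.8 with EB, a log2 fold change of 0.62 (limma adjusted p = 0.00987), and was called in each of the 17 alternatives, at 0.34 with the length and GC trend removed. PIDD1 was at 23.6 ± 6.98 and 27.9 ± 3.35 TPM (SD, n = 4; limma adjusted p = 0.341).

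Of 11 caspase substrates and effectors, 10 were tested, 3 fell and none rose. ROCK1, the kinase whose cleaved form drives membrane blebbing, fell from 12.2 ± 2.74 to 5.86 ± 2.22 TPM (SD, n = 4; log2 fold change −1.0, limma adjusted p = 0.0160). PAK2, another kinase activated by cleavage, had a log2 fold change of −0.73 (limma adjusted p = 0.00210). GSDME, a gasdermin that forms pores once cut by a caspase, had −0.61 (limma adjusted p = 0.0122). With the length and GC trend removed ROCK1 was at −0.46 and not past the test (limma adjusted p = 0.135), and PAK2 was at −0.29 and still past it (limma adjusted p = 0.00872). GSDME was at −0.34 with quantile normalization (limma adjusted p = 0.0432). Of 4 other factors of the mitochondrial intermembrane space, OPA1, a fusion GTPase that shapes cristae, fell from 45.2 ± 17.2 to 25.4 ± 3.39 TPM (SD, n = 4; log2 fold change −0.75, limma adjusted p = 0.0242), and AIFM1 and ENDOG were not called. OPA1 was not past the test with the length and GC trend removed (−0.30, limma adjusted p = 0.254) or without EB replicate 1, 3 or 4 (limma adjusted p = 0.0543, 0.0679 and 0.0514).

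**Figure D4:**
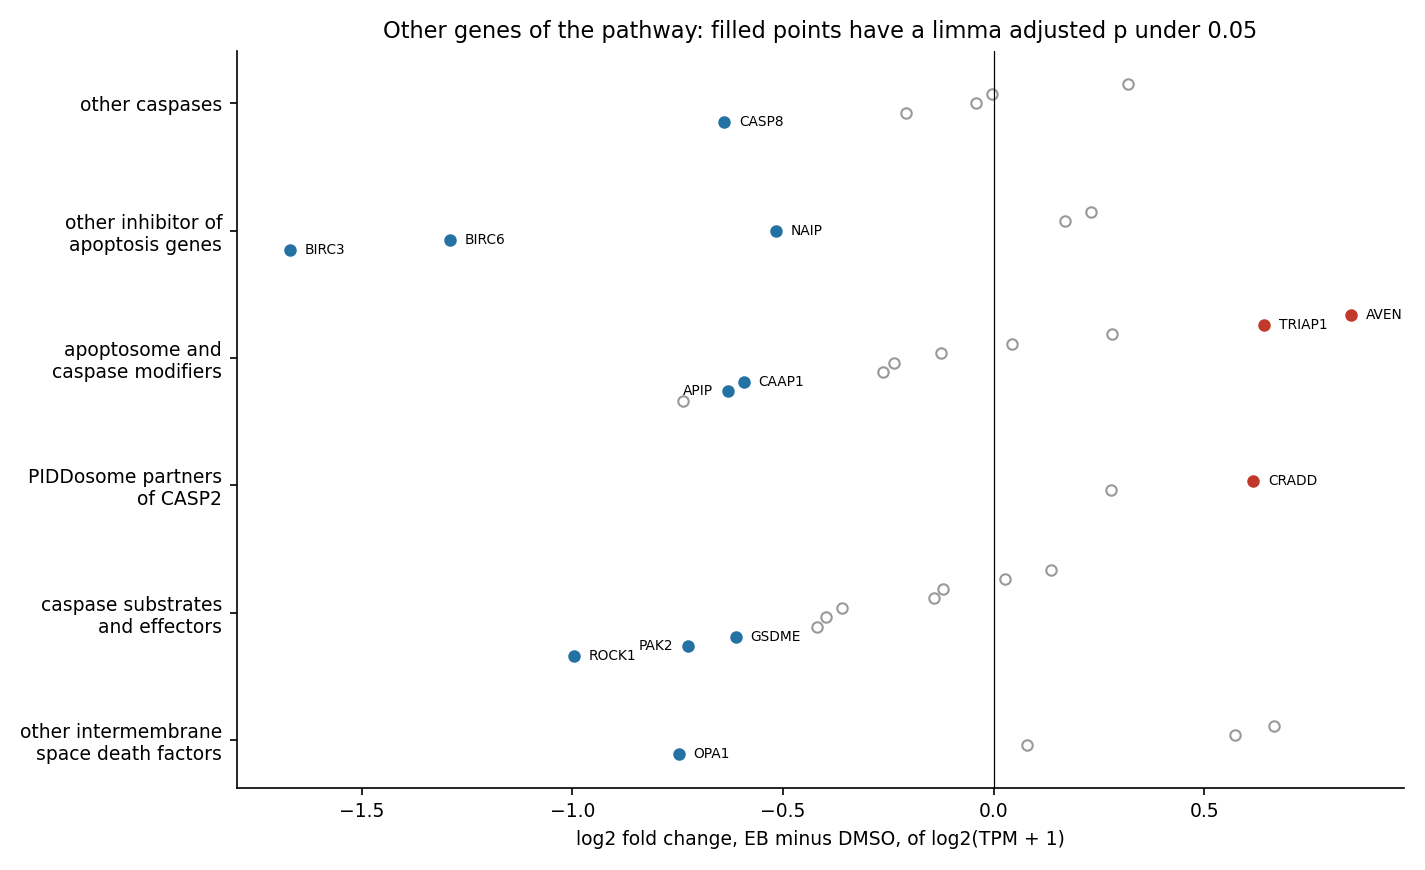
Log2 fold change, EB minus DMSO, of the 36 tested genes of the other pathway lists, 1 point a gene, on a linear axis of log2 units with lists in rows. Filled points passed the limma test (blue lower, red higher) and are named, and open grey points did not. BIRC3 at −1.67 lies farthest to the left and AVEN at 0.85 farthest to the right.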

How the data were processed

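Gene expression in PANC-1 cells was measured by mRNA sequencing in 8 libraries, 4 with DMSO and 4 with EB, described in the methods as biological replicates. The authors deposited TPM per gene in a single table under human Ensembl identifiers. Trimming, mapping and normalization ran in CLC Genomics Workbench per the methods, which also list HISAT2 and StringTie, and both a mouse build (GRCm38, mm10) and hg38 are named. The annotation used for counting is not given in the sources used here. TPM keep no depth, so the reads behind a value and their counting error are unknown. The column letters C and H were read as DMSO and EB, the only groups. Of 20263 identifiers, 20148 matched a symbol in GENCODE release 44 (hg38) and 115 did not. No libraries held identical values.

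TPM were used as deposited. Genes that reached a TPM of 1 in 4 or more libraries entered limma 3.58.1 in R 4.3.3 on log2(TPM + 1), with lmFit and eBayes (no trend, no block) and Benjamini-Hochberg adjustment over all 11725 genes, with calls at an adjusted p under 0.05. Fold changes on this scale understate those of low genes. Single genes also had exact two-sided permutation tests. As alternatives the filter was dropped or raised to a TPM of 5, the pseudocount set to 0.1, TPM scaled by median ratios, by quantiles or over nuclear genes alone, the dependence on length and GC content taken out (natural splines with 5 degrees of freedom), an intensity trend or a replicate block added, and single libraries left out. The steps were tested on simulated data. Python 3.11.15, numpy 2.4.6, pandas 2.3.3, scipy 1.17.1, data.table (version 1.17.8) and matplotlib 3.10.9 were also used.

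The members, lists and alternatives were chosen with earlier results of these data known. Named genes are the 8 members, up to 3 called genes a list with the largest absolute log2 fold change, and the 3 genes most correlated with a member. CASP1, CASP4, BIRC2, BIRC5, CAAP1, PIDD1, AIFM1, ENDOG and the genes that overlap or adjoin a member were named after their values were seen. Some genes of the lists are not reported here. Promoter windows are the RefSeq bases before each start, shown without bases annotated as untranslated exon.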

Additional observations from a re-analysis of the deposited data

Results flagged for a closer look

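Within-group spread was checked by Dixon's test in 40 groups, that is the 4 libraries of each condition for each gene tested individually, where chance alone puts about 1 in 20 groups past its 95% critical value. It was passed by 2 groups. CASP9 was 9.46 TPM in EB replicate 3, apart from the other EB libraries, of which the nearest was at 11.2 (ratio of gap to range 0.857). OPA1 was 70.7 TPM in DMSO replicate 3, where the nearest other DMSO library was at 40.6 (ratio 0.831).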

How the results depend on the processing

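The 20 named genes were refitted under 17 alternatives, and 301 of these values kept their direction and side of the threshold. Among the 8 members, the 1 higher gene became 2 with the length and GC trend removed and 1 to 2 with single libraries left out (2 without EB replicate 4). The 1 lower gene became 0 with no filter, with a TPM of at least 5 (APAF1 was then not tested), with quantile normalization and with the length and GC trend removed, 2 with median-ratio scaling and with nuclear genes rescaled, and 0 to 2 with single libraries left out. Among the other pathway genes, the 3 higher became 9 with median-ratio scaling, 7 with the length and GC trend removed and up to 5 without DMSO replicate 1, and the 10 lower became 16 with nuclear genes rescaled. These counts are to be read against those of all genes tested. There, 1785 higher of 11725 became 3039 of 11725, 2853 of 11685 and 1680 of 11556 in the same order of settings. Without EB replicate 4 the higher genes were 1583 of 11663. The 2944 lower of 11725 became 4954 of 11967 with nuclear genes rescaled and 3080 of 11725 with median-ratio scaling. They became 3036 of 16142 with no filter and 2211 of 9490 with a TPM of at least 5. They were 2759 of 11725 with quantile normalization and 2547 of 11685 with the length and GC trend removed. With single libraries left out they ran from 1950 of 11562 (without DMSO replicate 3) to 4218 of 11589 (without DMSO replicate 4). Log2 fold changes that turned sign were those of CASP6 (−0.090 with nuclear genes rescaled, −0.092 with the length and GC trend removed, and from −0.11 without DMSO replicate 4 to 0.21 with single libraries left out), CASP9 (0.018 with median-ratio scaling, 0.15 with quantile normalization, and from −0.21 to 0.019, the latter without DMSO replicate 1, with single libraries left out) and XIAP (0.18 with the length and GC trend removed). None of these was called. With the replicate block, 2 members were lower (APAF1 and XIAP) and 5 other pathway genes higher, and 2231 genes were higher and 3525 lower in all. The labels do not say what a replicate number shares, so the numbers were not taken as pairs. Deviations from the group means had r of −0.0879 to 0.285 between same-numbered libraries and −0.238 to 0.126 between differently numbered ones. The highest r were those of replicate 4 (0.285) and replicate 1 (0.183). The cause of these changes was not tested. With TPM alone, the depth behind low genes such as APAF1 and NAIP is unknown.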
